A study of Saccharomyces cerevisiae with 6 samples.

Results

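The genes described here encode the budding yeast machinery that cuts the 3′ end of a pre-mRNA, adds its poly(A) tail and later shortens that tail. They are 32 genes chosen by name from what their products do, and all 32 were found on the array, as 39 of its 7680 spotted features. By class, 24 features belong to 19 cleavage and polyadenylation genes, 12 to 11 deadenylase genes and 3 to 2 genes of mRNA-binding proteins. RNA from yra1-1, a temperature-sensitive mutant of Saccharomyces cerevisiae, was compared with RNA from a wild-type Yra1 strain on 6 two-colour arrays, total RNA of cells at 37 °C in both cases. The yra1-1 RNA is labelled as channel 1 on arrays 1, 4 and 6 and as channel 2 on arrays 2, 3 and 5. The titles carry 6-digit codes, read here as 4 days, though no label says so or what was done then. By these codes arrays 5 and 6 are on day 1, array 4 on day 2, array 2 on day 3 and arrays 1 and 3 on day 4. The title of array 1 carries extra letters before the mutant's name. The time at 37 °C, the rest of each genotype and the number of cultures are not given in the labels, so the spread between arrays may be technical.

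In yeast, cleavage factor IA (CF IA) and the cleavage and polyadenylation factor (CPF) recognise the poly(A) site, cut the transcript and polymerise the tail. Pcf11, a CF IA subunit, binds the RNA polymerase II tail and also binds Yra1, the mRNA export adaptor mutated here, which links 3′ end formation to export. In the cytoplasm Pan2-Pan3 trims the tail first, and Ccr4-Not then removes most of it, which precedes decapping. Ccr4-Not subunits also act in transcription in the nucleus.

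Values are log2 ratios, each array centred on its own median, so 0 is the typical feature of that array. The deposited ratios do not say which channel is on top, or whether any column was turned before deposit, so 2 readings are given. The turned shift averages the arrays after the signs of arrays 2, 3 and 5 are reversed, as the labelled channels ask. Should channel 1 be the numerator, the turned shift is yra1-1 over wild type. Should it be the denominator, the sign is the opposite. The shift as deposited averages the columns with their own signs. If the same channel is on top on every array, a difference between the RNAs cancels in that reading. What is left is then shared by both channel assignments and is no yra1-1 effect. Only if columns were turned before deposit could it be a yra1-1 shift. Both come from 1 limma fit over all features, with Benjamini-Hochberg adjusted p-values over all of them, and results are given as above or below 0. Every side is relative to the array medians, so a change in total mRNA per cell cannot be seen. Without centring, the median turned shift of all features was −2.07.

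Between 7625 and 7680 features had a value on an array, and the SD over features was 0.99 to 1.43. Before centring, array medians ran from −3.91 to −1.90 with the mutant in channel 1 and from −0.44 to 4.11 with it in channel 2. Turned, 1 of 7680 features passed an adjusted p of 0.05 (0.013%), and as deposited 127 did (1.65%). YRA1 itself had a turned shift of −1.23 ± 0.42 (SE, 6 arrays, limma adjusted p = 0.280) and 1.50 ± 0.42 as deposited (adjusted p = 0.107). The allele is temperature-sensitive, so YRA1 RNA checks no label.

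Of the 39 member features, 0 passed in either reading by limma. At an unadjusted p under 0.05 there were 6 turned (15.4%, against 13% of all features), 4 of them above 0 (7.51% of all features) and 2 below (5.48%). As deposited there were 4 (10.3%, against 13.5%), 2 above 0 (6.13% of all features) and 2 below (7.33%). The channel assignments did not overlap for 4 of the 39 (10.3%), whereas this held for 18.1% of all features with 6 values. None of these shares lay far above that of the whole array. All 9 Ccr4-Not features had a turned shift above 0, as did 53.5% of all features, while the cleavage factors were split evenly, 12 above and 12 below. Without centring 0 of the 9 lay above 0. The Ccr4-Not complex was picked out for this count with its values in view.

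**Figure D1:**
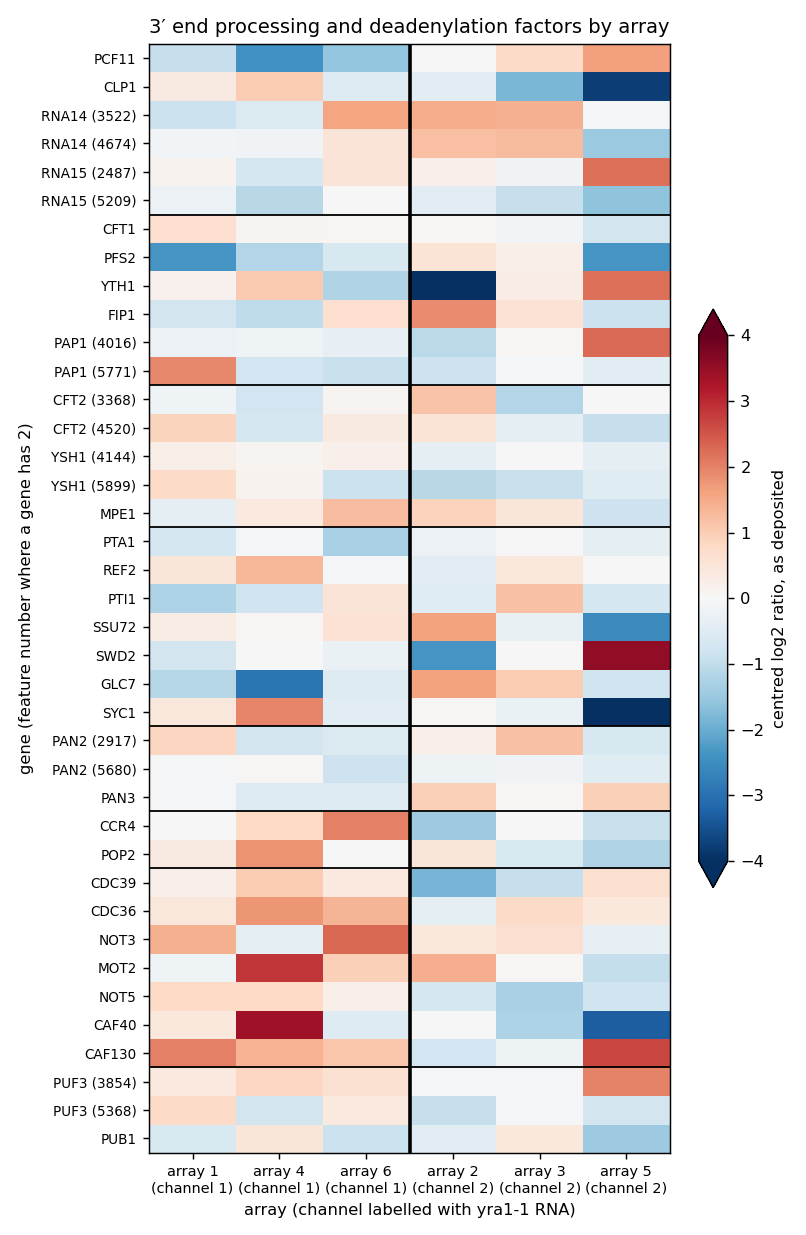
Centred log2 ratio as deposited (colour, clipped at 4 either way) of the 39 member features (rows, lines between roles) on the 6 arrays (columns), with the 3 arrays that carry yra1-1 RNA in channel 1 on the left. PCF11 is below 0 on the left and at or above 0 on the right, and most Ccr4-Not rows are above 0 on the left, relative to array medians.

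PCF11, the CF IA subunit that binds Yra1, had the lowest turned shift of the members. Its 1 feature (number 1505) lay at −0.92, −2.41 and −1.55 on arrays 1, 4 and 6, and at 0.03, 0.76 and 1.64 on arrays 2, 3 and 5. The 3 arrays with the mutant in channel 1 were thus all below the other 3, and the turned sign was negative on all 6, a pattern shared by 4.31% of features with 6 values. The turned shift was −1.22 ± 0.35 (SE, 6 arrays, limma adjusted p = 0.251, unadjusted p = 0.0047), so it did not pass. Within day 1, which holds arrays 5 and 6, it was −1.59, and within day 4, which holds arrays 1 and 3, −0.84. As deposited, PCF11 stood at −0.41 ± 0.35 (adjusted p = 0.725).

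Features with identifiers near that of PCF11 carried much of the same pattern. Neighbours were taken as those whose identifiers differ by 1, 2, 20 or 21, without a print layout to show where they lie on the slide. Their median was −0.70, −1.73 and −0.86 on arrays 1, 4 and 6. It was 0.17, 0.65 and 0.45 on arrays 2, 3 and 5. With that median subtracted, the turned shift of PCF11 was −0.46 ± 0.25 (SE, 6 arrays, limma adjusted p = 0.587). The part of slide position in the uncorrected value was not tested.

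**Figure D2:**
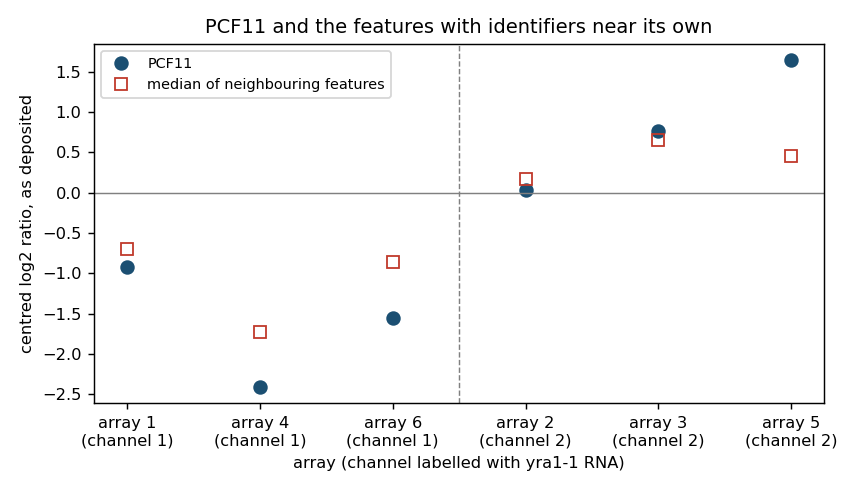
Centred log2 ratio as deposited of PCF11 (circles) and of the median of its neighbours by identifier (squares) on each array, with the mutant's channel in brackets. Both are below 0 on arrays 1, 4 and 6 and above 0 on arrays 2, 3 and 5, and PCF11 lies farther out than its neighbours on all arrays but array 2.

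CLP1, whose product holds Pcf11 in CF IA and binds ATP, lay on the other side from PCF11. Its values were 0.37, 1.02 and −0.51 on arrays 1, 4 and 6, and −0.45, −1.82 and −3.78 on arrays 2, 3 and 5. Array 6 falls inside the range of the second trio, so the assignments overlap, and array 5 holds the most extreme value. The turned shift was 1.16 ± 0.43 (SE, 6 arrays, limma adjusted p = 0.302, unadjusted p = 0.0202). After the neighbourhood correction it was 0.19 ± 0.28 (adjusted p = 0.871), the neighbours alone having a mean turned shift of 0.97. It was 0.72 without array 5, and 0.63 (unadjusted p = 0.152 by limma) without whole-number ratios, of which the value on array 5 is one.

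RNA14 and RNA15 encode the CF IA pair that contacts the RNA, Rna15 through its RNA-recognition motif and Rna14 as its scaffold. Each has 2 features. RNA14 was at −0.85, 1.47, 1.42, −0.58, −0.05 and 1.57 on arrays 1 to 6 by feature 3522, and at −0.11, 1.19, 1.26, −0.14, −1.50 and 0.51 by feature 4674. Both features have the same sign on each of the 6 arrays, and arrays 2, 3 and 6 are the ones above 0. RNA15 did not repeat in this way: feature 2487 reached 2.20 on array 5, where feature 5209 was at −1.62. By array, feature 2487 was at 0.15, 0.19, −0.13, −0.71, 2.20 and 0.50, and feature 5209 at −0.24, −0.45, −0.93, −1.12, −1.62 and −0.00. The turned shifts were −0.45 ± 0.40 and −0.11 ± 0.40 for RNA14 (limma adjusted p = 0.726 and 0.953), and −0.39 ± 0.38 and 0.27 ± 0.33 for RNA15 (adjusted p = 0.759 and 0.821). Feature 5209 of RNA15 was below 0 on all 6 arrays as deposited, as were 4.03% of features with 6 values (−0.72 ± 0.33, limma adjusted p = 0.361, unadjusted p = 0.0473). With the neighbourhood correction that value changed side, to 0.13.

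In the polymerase module of CPF, 3 of 6 features lay above 0 when turned and none had an unadjusted p under 0.05. CFT1, the large scaffold subunit, stayed within −0.72 to 0.68 on the 6 arrays. YTH1, a zinc-finger subunit that binds the RNA, ranged from −4.16 on array 2 to 2.19 on array 5. FIP1, which tethers the poly(A) polymerase, ranged from −1.03 to 1.88. PAP1, the poly(A) polymerase itself, was at −0.25, −1.09, 0.04, −0.17, 2.25 and −0.33 on arrays 1 to 6 by feature 4016. By feature 5771 it was at 1.92, −0.82, −0.08, −0.78, −0.42 and −0.90. Each feature has 1 high array, and they are different arrays. The turned shifts were −0.32 ± 0.41 and 0.26 ± 0.41 (SE, limma adjusted p = 0.835 and 0.877).

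PFS2, the WD-repeat subunit of the same module, had the lowest shift of the members as deposited. It lay at −2.35, 0.55, 0.27, −1.18, −2.37 and −0.63 on arrays 1 to 6. Arrays 1 and 5 are the lowest, and they carry the mutant in opposite channels. The shift as deposited was −0.95 ± 0.43 (SE, 6 arrays, limma adjusted p = 0.361, unadjusted p = 0.0471). It was −0.17 with array 1 turned over, −0.49 without array 5 and −0.32 with the neighbourhood correction. Turned, PFS2 was at −0.43 before that correction and at 0.71 ± 0.38 after it (adjusted p = 0.581).

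The 5 features of the nuclease module had a median turned shift of 0.21. Of these, 4 lay above 0 (53.5% of all features did), and none had an unadjusted p under 0.05 by limma. YSH1 encodes the endonuclease that makes the cut, and its feature 4144 was the steadiest of all member features (SD over arrays 0.28). It was at 0.24, 0.12 and 0.19 on arrays 1, 4 and 6 and at −0.39, 0.03 and −0.35 on arrays 2, 3 and 5. These trios do not overlap, as was so for 18.1% of all features with 6 values. The turned shift was 0.21 ± 0.30 (adjusted p = 0.863), and 0.49 ± 0.22 with the neighbourhood correction. The other YSH1 feature, 5899, was at 0.76, −1.12, −0.89, 0.14, −0.48 and −0.87 on arrays 1 to 6 (0.42 ± 0.33 turned, limma adjusted p = 0.679). CFT2, the nuclease's inactive partner, was at −0.17, 1.15, −1.18, −0.77, 0.00 and 0.11 by feature 3368 and at 0.89, 0.55, −0.38, −0.68, −0.93 and 0.37 by feature 4520. Neither follows the labelled channel, with turned shifts of −0.13 ± 0.36 and 0.22 ± 0.35 (limma adjusted p = 0.941 and 0.877). MPE1, a zinc-knuckle subunit, had a turned shift of 0.11.

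Among the 7 features of the phosphatase module 3 lay above 0 and 4 below when turned. GLC7, the catalytic subunit of protein phosphatase 1, which also works in glycogen, cell-cycle and stress pathways, was at −1.13, −2.93 and −0.52 on arrays 1, 4 and 6. It was at 1.61, 1.01 and −0.81 on arrays 2, 3 and 5, where array 5 falls among the first trio. Its turned shift was −1.07 ± 0.42 (SE, 6 arrays, limma adjusted p = 0.328, unadjusted p = 0.0272). Within day 1 this was 0.14 and within day 4 −1.07, and with the neighbourhood correction it was −0.39 ± 0.30 (adjusted p = 0.676). The value on array 4 is a ratio of the whole numbers 242 and 27889, and without such ratios the turned shift was −0.46 (limma unadjusted p = 0.336). With array 1 turned over it was −0.69.

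SYC1, which resembles the C-terminal part of Ysh1, had a turned shift of 1.20 ± 0.60 (limma adjusted p = 0.428), with its most extreme value, −5.02, on array 5. The median of its neighbours by identifier was −3.65 on that array. With the neighbourhood correction the turned shift of SYC1 was 0.23 ± 0.27 (limma adjusted p = 0.814). SWD2, shared with the COMPASS histone methyltransferase, ranged from −2.37 on array 2 to 3.55 on array 5. SSU72, the polymerase tail phosphatase, also had its extreme on array 5, at −2.56. The remaining members had turned shifts of −0.24 for PTA1, the module's scaffold, 0.29 for REF2 and −0.25 for PTI1. All 18 CPF features together had a median turned shift of 0.16, against 0.04 over all features, and a median of −0.10 as deposited.

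The median turned shift was −0.19 for the 3 Pan features and 0.58 for the 9 of Ccr4-Not. With the neighbourhood correction these medians were 0.06 and 0.20, and the difference between the complexes was not tested. PAN2, the nuclease, was at 0.86, 0.20, 1.17, −0.73, −0.65 and −0.58 on arrays 1 to 6 by feature 2917 and at −0.04, −0.21, −0.13, 0.05, −0.49 and −0.83 by feature 5680. Its turned shifts were −0.19 ± 0.36 and 0.00 ± 0.31 (SE, limma adjusted p = 0.907 and 0.998), so neither feature separated the labelled channels. PAN3, its RNA-binding partner, was at −0.07, −0.53 and −0.53 on arrays 1, 4 and 6 and at 0.96, 0.04 and 0.94 on arrays 2, 3 and 5. These trios do not overlap, as was so for 18.1% of all features with 6 values. The turned sign is negative on all 6 arrays, as it was for 4.31% of them. The PAN3 shift did not pass (−0.51 ± 0.31, SE, limma adjusted p = 0.545), and it was −0.31 ± 0.28 with the neighbourhood correction. Its values on arrays 1, 2 and 5 are whole-number ratios.

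All 9 Ccr4-Not features, 1 for each of 9 genes, had turned shifts above 0 relative to array medians, from 0.44 to 1.31. The median of the 9 was 0.42, 1.38 and 0.95 on arrays 1, 4 and 6 and −0.40, −0.20 and −0.79 on arrays 2, 3 and 5. Over single arrays, 8 of the 9 were above 0 on arrays 1 and 4 and 7 on array 6, whereas 4, 4 and 3 were on arrays 2, 3 and 5. Of the 9, 0 passed the adjusted test and 3 had an unadjusted p under 0.05 on the positive side, where 7.51% of all features stood. The count of 9 was the same when any 1 of the 6 arrays was left out, and it was 7 of 9 within day 1 and 6 of 9 within day 4. Over the whole array of 7680 features, 4005 were above 0 within day 1 and 4101 within day 4. These refits share arrays, and the complex was picked with its values in view, so the counts are no independent check.

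Neighbouring features leaned the same way for most of this complex too. The mean turned shift of the neighbours by identifier was above 0 for all 9 Ccr4-Not features, with a median of 0.39. That count was not made over all features. The neighbours' shift was highest for CAF40 (1.03) and close to 0 for CDC36 (0.01), CCR4 (0.03) and NOT3 (0.06). After the neighbourhood correction 8 of 9 features were above 0, as were 4118 of all 7680 features. The corrected median was 0.20, against 0.03 over all features, and values ran from −0.23 for POP2 to 0.82 for CCR4. Without values that are exact ratios of small whole numbers, 7 Ccr4-Not features could be fitted and all 7 were above 0. With array 1 turned over, 7 of the 9 features were above 0.

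**Figure D3:**
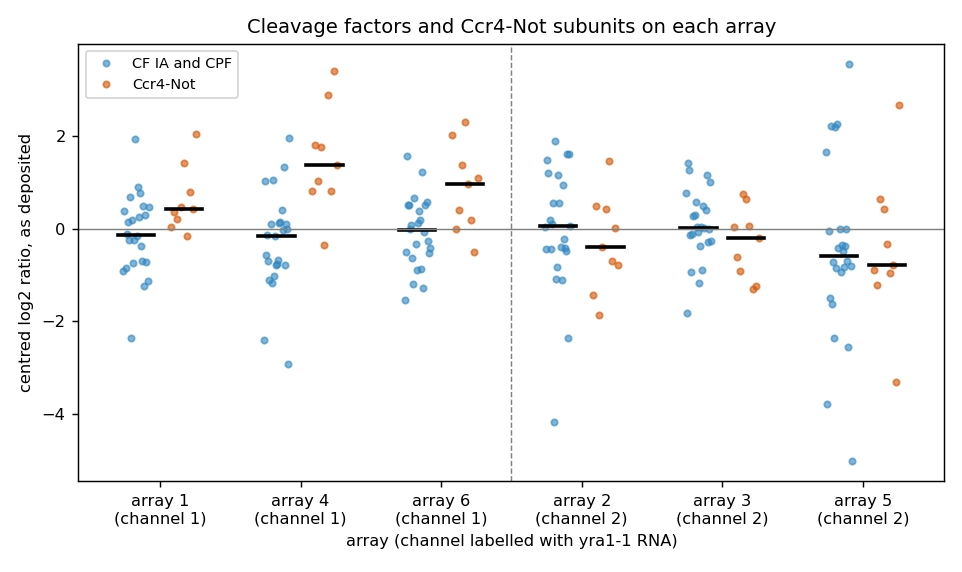
Centred log2 ratio as deposited of the 24 CF IA and CPF features (blue) and the 9 Ccr4-Not features (orange) on each array, with the mutant's channel in brackets and black bars at the medians. The orange medians are 0.42, 1.38 and 0.95 left of the dashed line and −0.40, −0.20 and −0.79 right of it, while the blue medians run from −0.59 to 0.05.

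CCR4, the main deadenylase of the complex, was at 0.03, 0.80 and 2.01 on arrays 1, 4 and 6 and at −1.44, 0.03 and −0.90 on arrays 2, 3 and 5. The 2 trios meet at arrays 1 and 3, and the highest and lowest values fall on opposite sides. The turned shift was 0.86 ± 0.36 (SE, 6 arrays, limma adjusted p = 0.348, unadjusted p = 0.0366), and 0.82 ± 0.28 after the neighbourhood correction (adjusted p = 0.528), its neighbours having a mean turned shift of 0.03. On arrays 1, 3 and 4, however, the deposited CCR4 value was identical to the last digit to those of ERP1, 18 identifiers away, and POL12, 39 away. Within day 1 the turned shift was 1.45. Within day 4, where both values are among these repeats, it was −0.00. POP2, the second nuclease, had a turned shift of 0.58 ± 0.37 (limma adjusted p = 0.565).

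NOT5, a regulatory subunit that contacts ribosomes, was the one Ccr4-Not gene whose channel assignments did not overlap. It was at 0.79, 0.81 and 0.19 on arrays 1, 4 and 6 and at −0.71, −1.30 and −0.79 on arrays 2, 3 and 5. The trios do not overlap, as was so for 18.1% of all features with 6 values. The turned sign is positive on all 6 arrays, as it was for 2.98% of them. Its turned shift was 0.76 ± 0.31 (SE, limma adjusted p = 0.333, unadjusted p = 0.0284). With the neighbourhood correction it was 0.20 ± 0.23 (adjusted p = 0.812), and with array 1 turned over 0.50.

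CAF40, a conserved subunit without nuclease activity, had the highest turned shift of all members. It was at 0.42, 3.40 and −0.51 on arrays 1, 4 and 6 and at 0.01, −1.24 and −3.31 on arrays 2, 3 and 5. The trios overlap, and the extremes are on arrays 4 and 5. The values on arrays 4 and 6 are whole-number ratios (535 and 764, 609 and 7022), and without them too few arrays were left for a fit. The turned shift amounted to 1.31 ± 0.54 (SE, 6 arrays, limma adjusted p = 0.345, unadjusted p = 0.0320), and to 0.28 ± 0.29 with the neighbourhood correction. It was 0.74 without array 4 and 0.86 without array 5.

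CAF130 and CDC36 had an unadjusted p under 0.05 by limma as deposited instead, as had 13.5% of all features. CAF130, a subunit specific to some fungi, was at 2.03, −0.78, −0.20, 1.38, 2.66 and 1.10 on arrays 1 to 6, and CDC36, the Not2 subunit, at 0.46, −0.40, 0.75, 1.75, 0.43 and 1.37. As deposited, CAF130 had a shift of 1.03 ± 0.44 (SE, limma adjusted p = 0.319, unadjusted p = 0.0370) and CDC36 of 0.73 ± 0.33 (adjusted p = 0.367, unadjusted p = 0.0492). Array 2 was below 0 for both, as was array 3 for CAF130. With the neighbourhood correction these shifts were 0.81 and 0.59, and without array 5 that of CAF130 was 0.51. They were 0.35 and 0.57 with array 1 turned over, and 0.20 and −0.11 without centring. CDC39, the Not1 scaffold, had a turned shift of 0.63, NOT3 of 0.44 and MOT2, the Not4 ubiquitin ligase, of 0.52. As deposited, 6 of the 9 Ccr4-Not features lay above 0 (51.5% of all features did), with a median of 0.13.

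**Figure D4:**
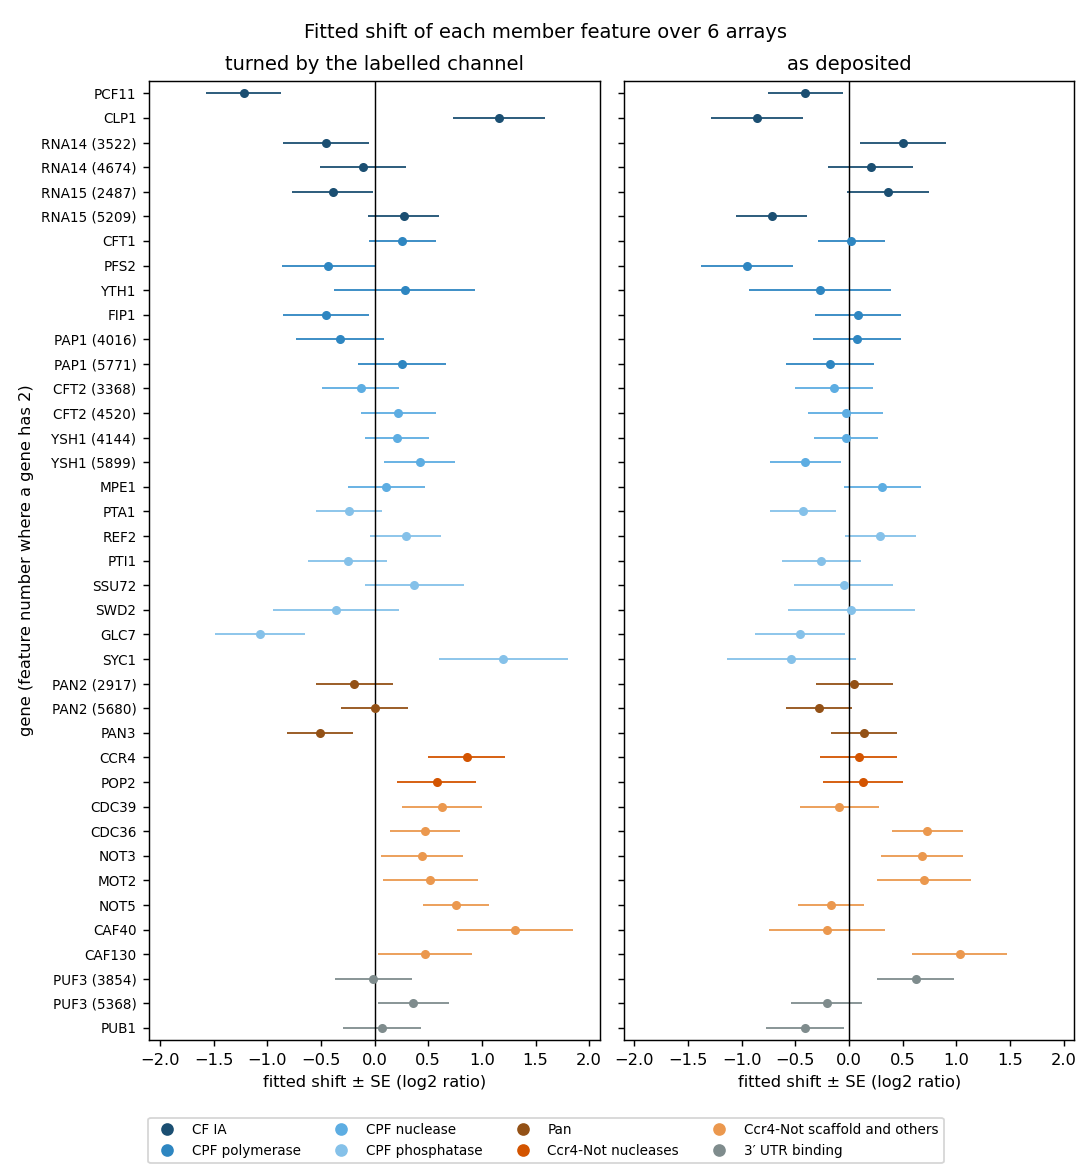
Fitted shift (log2 ratio, point) with its standard error (bar) of each member feature over 6 arrays, turned by the labelled channel (left) and as deposited (right), coloured by role. On the left all 9 Ccr4-Not points lie above 0 relative to array medians, from 0.44 to 1.31, with PCF11 lowest at −1.22, and on the right they lie on both sides.

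The cleavage and polyadenylation factors were set against the deadenylases by the median over their features. Turned by the labelled channel, the median shift was −0.00 for the 24 cleavage features and 0.50 for the 12 Pan and Ccr4-Not features, a gap of −0.50. By array, the turned gap was −0.52, −0.15, −0.07, −1.08, 0.02 and −0.34 on arrays 1 to 6, so 5 of 6 lay below 0, and their mean was −0.36 ± 0.40 (SD, n = 6 arrays). The gap is about as large as its spread between arrays, and it was −0.13 with the neighbourhood correction. As deposited it was −0.20, and 4 of 6 arrays lay below 0. No test was made of a score over chosen members.

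The 2 genes of mRNA-binding proteins had turned shifts from −0.01 to 0.36. PUF3, which brings Ccr4-Not to mRNAs of mitochondrial proteins, was at 0.40, −0.06, −0.05, 0.83, 1.99 and 0.62 on arrays 1 to 6 by feature 3854 and at 0.78, −0.93, −0.05, −0.72, −0.73 and 0.39 by feature 5368. Its turned shifts were −0.01 ± 0.36 and 0.36 ± 0.33 (SE, limma adjusted p = 0.995 and 0.742). PUB1, a poly(U)-binding protein that stabilises some mRNAs, had one of 0.07, with values from −1.44 to 0.48.

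The 7 genes with 2 features show how well a member's value repeats. Both features had the same sign in 25 of 42 comparisons on an array, and the median gap between them was 0.60. Over the 1100 genes with exactly 2 features the median gap was 0.51 to 0.85 on the 6 arrays. The gap was largest on array 5 for RNA14 (1.45), RNA15 (3.81), PAP1 (2.67) and PUF3 (2.72). In the turned fit 2 of the 7 genes had both features on the same side, RNA14 and YSH1, and as deposited 3 did. When the features of a gene were averaged, no gene of the 7 had an unadjusted p under 0.05 in either reading, the lowest turned p being 0.289 for YSH1. PCF11 and the Ccr4-Not genes have 1 feature each, so no such check exists for them.

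**Figure D5:**
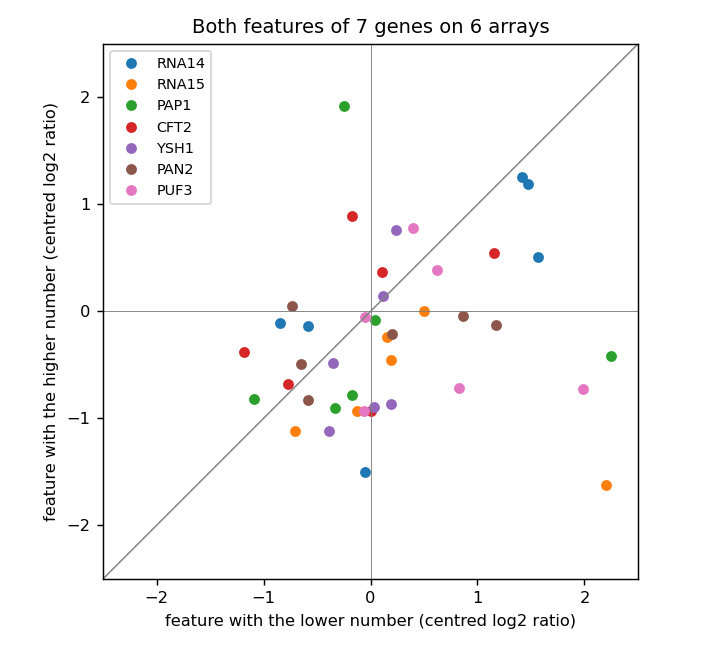
Centred log2 ratio as deposited of the 2 features of RNA14, RNA15, PAP1, CFT2, YSH1, PAN2 and PUF3, the lower feature number on the horizontal axis, 1 point for each of 6 arrays. Points on the diagonal would repeat exactly, and the points for RNA15, PAP1 and PUF3 at the far right are all from array 5.

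Some deposited ratios show the whole numbers they were made from. Of the 234 member values, 42 (17.9%) were exact ratios of small whole numbers, the same share as in all values (17.9%). By array there were 12, 15, 0, 6, 6 and 3 such values on arrays 1 to 6. In lowest terms, the PFS2 value on array 1 is a ratio of 31 and 590, that of FIP1 on array 2 of 26 and 107, and that of SWD2 on array 1 of 16 and 99. The PAN2 value of feature 5680 on array 1 is one of 6 and 23, and the −5.02 of SYC1 on array 5 is one of 75 and 3302. The recorded numbers may be multiples of these. None of the 6 PCF11, 6 CCR4 or 6 CAF130 values was of this kind.

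Other genes of poly(A) tail formation, termination and mRNA-binding control were read from a list of 29 genes, all present, with 36 features. Turned, 0 of the 36 passed by limma, with 6 at an unadjusted p under 0.05 (16.7%, against 13% of all features), 3 on each side, and as deposited 1 did, on the positive side, where 0.573% of all features passed. The median turned shift was 0.06, with 20 above 0 and 16 below. As deposited the median was −0.10, with 14 above 0 (38.9%, against 51.5% of all features) and 22 below. On the negative turned side the smallest p belonged to PAB1, the poly(A)-binding protein that recruits Pan2-Pan3 (−1.75 ± 0.38, limma adjusted p = 0.180). It was followed by HRP1, the CF IB subunit that positions the cut (−2.87 ± 0.92, adjusted p = 0.266), and NPL3, a shuttling RNA-binding protein (−0.80 ± 0.35, adjusted p = 0.361). All 3 had 6 of 6 turned signs negative, as had 4.31% of features with 6 values, and HRP1 ran from −7.76 on array 1 to 6.31 on array 3. The HRP1 shift was −1.75 without array 1, −1.49 with the neighbourhood correction and −0.29 with array 1 turned over. That of NPL3 was −0.50 without array 5, and that of PAB1 was −1.28 with the neighbourhood correction.

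On the positive turned side stood NGL1, a nuclease related to Ccr4 by sequence (1.37 ± 0.34, limma adjusted p = 0.224, 6 of 6 arrays), and NAB3, of the Nrd1 termination complex (1.40 ± 0.47, adjusted p = 0.277, 5 of 6). NGL3, another Ccr4 relative, followed (0.97 ± 0.39, adjusted p = 0.333, 5 of 6). After that correction the shifts were 0.15 for NGL1, 0.51 for NAB3 and 0.54 for NGL3. Without array 4 that of NAB3 was 0.92, and with array 1 turned over that of NGL3 was 0.39.

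As deposited, the feature that passed was 3902 of TIS11, a zinc-finger protein that directs decay of mRNAs under iron shortage. It was at 2.22, 1.98, 1.29, 2.22, 2.95 and 2.70 on arrays 1 to 6 (2.22 ± 0.33, SE, limma adjusted p = 0.0111). It no longer passed without array 4 (adjusted p = 0.0546) or array 6 (adjusted p = 0.0710), nor with the neighbourhood correction (1.68, adjusted p = 0.104), with array 1 turned over (1.48, adjusted p = 0.545) or without centring (1.39, adjusted p = 0.705). The other TIS11 feature was at −0.13 ± 0.38 (adjusted p = 0.942), and the 2 averaged gave 1.05 (limma adjusted p = 0.148). MPT5, a Puf protein that recruits Ccr4-Not (1.13 ± 0.34, limma adjusted p = 0.135), and NAB6 (0.83 ± 0.37, adjusted p = 0.351) followed on that side. The second features of these genes were at −0.38 for MPT5 and 0.03 for NAB6, and the averages of both features at 0.38 and 0.43. With array 1 turned over MPT5 was at 0.42, and with the neighbourhood correction NAB6 was at 0.36. On the other side the nearest were NAB2, a nuclear poly(A)-binding protein (−0.97 ± 0.34, limma adjusted p = 0.197), NGL1 (−0.78 ± 0.34, adjusted p = 0.348) and CAF16, a Ccr4-Not partner (−0.71 ± 0.32, adjusted p = 0.349). After that correction these were 0.29 for NAB2, −0.20 for NGL1 and −0.06 for CAF16. The second NAB2 feature was at −0.29, and with both averaged the gene was at −0.63.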

How the data were processed

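The authors deposited 1 log10 ratio for each feature and array. The log10 scale was read from the values, and image analysis, background treatment, normalization and the numerator channel were not stated in any source at hand. Signal over background is unknown. Of 7684 rows, 1 without a numeric identifier was dropped and 3 repeated identifiers were averaged. The platform annotation named 6695 of 7680 features. Values were converted to log2, each array was centred on its median, and limma 3.58.1 (R 4.3.3) fitted the labelled mutant channel and the sign as deposited together. Features needed values on at least 4 arrays and 2 of each channel assignment. All member features had 6 values. The fit was also run on simulated noise drawn independently for each feature and array. Such noise lacks the likeness between neighbours seen here, so that run does not measure error from it. The number of arrays limits the precision. Tests are two-sided.

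The neighbourhood correction subtracts the median of features whose identifiers differ by 1, 2, 20 or 21. Whole-number ratios have a product of terms below 10000000, within a relative tolerance of 1.2e-09. The members, lists and alternatives were chosen with earlier results of these data known. Full values are given for PCF11, for genes with 2 features and for members with an unadjusted p under 0.05 in either reading. PAN3 and the features far off on array 5 were picked with their values in view. Of the pathway list, up to 3 features on each side with the smallest p are named in each reading. Alternatives were no centring, leaving out each array, day as a block, array weights, the neighbourhood correction, leaving out whole-number or repeated values or incomplete features, array 1 turned over, each sign fitted alone, single days and features of a gene averaged. For the Ccr4-Not count and the pathway features these were added after seeing the data.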

Additional observations from a re-analysis of the deposited data

Results flagged for a closer look

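Some values lay far from the other 5 of their feature by Dixon's criterion, which chance meets in about 1 of 20 groups. Over 50 features in 2 readings, 5 values did so. SYC1 was at −5.02 on array 5 as deposited, where the median of its neighbours by identifier was −3.65. PAP1 was at 2.25 on array 5 by feature 4016 and at 1.92 on array 1 by feature 5771, where the other PAP1 feature was at −0.42 and −0.25. Turned, PUF3 feature 3854 was at −1.99 on array 5 and NPL3 at −2.44 on array 5. Of the 5 values, 4 are from array 5, which has the highest SD over features (1.43).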

How the results depend on the processing

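Each array holds both RNAs, so each ratio is already a comparison within an array, and the main fit used no further pairing. Arrays of opposite channel assignment were paired only within day 1 and within day 4, as effect sizes without a test. Without centring, the median turned shift of all features was −2.07, so every side is relative to the array medians. In that fit 4887 of 7680 features passed turned and 2 as deposited. Of the 39 member features 18 passed turned, a smaller share than over all features. Of the Ccr4-Not features, 0 (turned) and 1 (as deposited) were above 0. There PCF11 (−3.33, limma adjusted p = 0.0164) and GLC7 (−3.18, adjusted p = 0.0167) passed, and the value changed side for CAF40 (−0.80), CCR4 (−1.25), CLP1 (−0.95), NOT5 (−1.34), NAB3 (−0.71), NGL1 (−0.73) and NGL3 (−1.14) turned and for CDC36 (−0.11) and NAB6 (−0.00) as deposited. In all other alternatives 0 member features passed. Features passing turned numbered 0 to 4 without 1 array, 7 with array weights and 0 with the neighbourhood correction, without repeated values or with features on all 6 arrays only. As deposited they numbered 0 to 214 without 1 array (0 without array 4 or 6, with 817 and 783 at an unadjusted p under 0.05), 257 with day as a random block, 580 with array weights, 3 with the neighbourhood correction, 30 without repeated values, 2 with array 1 turned over and 69 with features of a gene averaged. Within day 1 the side changed for PCF11 as deposited (0.05), GLC7 turned (0.14) and NGL3 turned (−0.05), and within day 4 for CCR4 turned (−0.00) and NAB6 as deposited (−0.11). With the neighbourhood correction it changed for RNA15 feature 5209 (0.13) and NAB2 (0.29) as deposited. That correction moved 8 of 39 member features to the other side turned and 13 as deposited. The gap between cleavage factors and deadenylases stayed below 0 turned in every alternative run, from −0.73 to −0.13, and as deposited in every one but within day 4 (0.02). With array weights MPT5 feature 2916 (1.29, limma adjusted p = 0.0179) and NAB2 feature 5672 (−1.10, adjusted p = 0.0314) passed as deposited, and without centring HRP1, PAB1 and NPL3 passed turned. The cause of these changes was not tested.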
